A study of Mus musculus with 24 samples.

Results

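The IL-6 family and its STAT3 feedback genes were followed in mouse kidney after ischemic injury. The 10 genes were chosen by symbol, for their roles in this pathway: the ligand genes Il6, Osm and Lif, the receptor genes Il6ra, Osmr, Lifr and Il6st, the transcription factor gene Stat3, the feedback inhibitor gene Socs3, and Bcl3. The choice was made with earlier results of these data known. All 10 were found among the 53392 genes of the deposited files. All 10 also passed the filter on low counts in each fit. Messenger RNA was taken from FVB (inbred) mouse kidneys after sham treatment without injury, or after ischemic acute kidney injury (IRI). Proximal tubules (PTs) were microdissected, and an endothelial isolate was taken with microbeads against CD31, after enzymatic digestion. This gave 8 groups: sham females, sham males, injured females and injured males, each as tubules and as endothelial isolates, with 3 libraries a group except 2 for sham female endothelial isolates. The length of ischemia, the sampling time and the age of the mice are not given in the sources used here.

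IL-6 family cytokines bind a receptor chain of their own (IL-6 binds the protein of Il6ra, oncostatin M that of Osmr, and LIF that of Lifr) and signal through the shared chain gp130, the product of Il6st. Janus kinases on these receptors phosphorylate STAT3, which then enters the nucleus and activates genes of the acute phase response. One such gene is Socs3, whose protein binds gp130 and the kinases and limits the signal, so Socs3 messenger RNA is widely used as a readout of STAT3 activity. Bcl3 encodes a nuclear relative of the IkB proteins that acts with the NF-kB subunits p50 and p52, and it is also known as a gene that STAT3 and NF-kB activate. In kidney, tubule cells and endothelial cells can both respond to these cytokines, while infiltrating leukocytes are a known source of oncostatin M.

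The 23 libraries held 32592517 to 54906972 estimated reads. Levels within an isolation are given as CPM, estimated counts scaled to a common, TMM-normalized library size, in the order of replicates 1, 2 and 3. The CD31 isolates were richer in endothelial markers but also held tubule RNA: 12 endothelial markers summed to 566 to 2364 CPM there and to 175 to 480 CPM in tubules, while 10 proximal tubule markers still summed to 6469 to 21720 CPM in the endothelial isolates. Thick ascending limb and distal markers, 7 in all, summed to 8388 to 16270 CPM in the endothelial isolates and to 1559 to 7307 CPM in tubules. Fewer cells of a type and less RNA per cell cannot be told apart in such bulk samples. A total of 4 libraries stood apart for the genes described here and are named where they matter: injured male tubule replicate 3, sham male tubule replicate 3, injured male endothelial replicate 2 and sham male endothelial replicate 3. Endothelial and tubule libraries share replicate numbers in their titles; whether a number is 1 mouse is not given in the sources used here, and the isolations were compared as separate samples.

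Per length of annotated exon, Socs3 and Il6st were the most abundant of the 10 genes outside injured males, where Stat3 exceeded Il6st. Il6, Osm and Lif reached at most 0.213 outside injured males. On this scale (CPM per kilobase of exon, both isolations normalized together) Socs3 ranged from 8.90 ± 2.55 in sham female tubules (SD, n = 3) to 96.3 ± 18.4 in injured male tubules and 101 ± 94.1 in injured male endothelial isolates. Il6st stayed between 14.1 ± 1.05 in sham female tubules and 22.7 ± 2.13 in injured male endothelial isolates. Stat3 lay at 4.93 ± 0.323 in sham female tubules and at 28.9 ± 13.1 in injured male tubules. Il6ra was low in tubules, at 0.181 ± 0.110 in sham females and 0.601 ± 0.479 in injured males. All 10 genes had their highest group mean in an injured male group, except Lifr, which was highest in sham female endothelial isolates (11.3 ± 1.76, n = 2). The highest group was the same by the authors' TPM for all 10 genes.

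Socs3 has a STAT motif just upstream of its RefSeq start. RefSeq promoter windows (GRCm38.p6, 250 bases before to 50 after each start) matched 9 of the 10 genes, and the palindromic motif TTCNNNGAA, the core that STAT dimers recognise, was in the window of Socs3 alone. It begins 154 bases before the Socs3 RefSeq start and reads TTCTTAGAA. In GENCODE the protein-coding Socs3 transcript starts 180 bases downstream of the RefSeq start, and 2 noncoding transcripts start 85 and 681 bases upstream of it, so the motif lies inside the gene's GENCODE span, in an intron of the longer noncoding transcript. The Socs3 window ends 50 bases after the RefSeq start, so it stops short of this coding start. Across all 32851 windows 8.30% held TTCNNNGAA, read the same on both strands, and 1.15% held the stricter TTCCNGGAA, which was in no window of the 10 genes. Counted by gene, 9.55% of 27025 genes had a window with TTCNNNGAA, and 1 of the 9 genes here is near that share. A match describes letters only, and its absence draws no statement about STAT3. The upstream bases of Socs3 (chr11:117969367-117969616, minus strand) are shown with the motif in capitals, beside those of Stat3 (chr11:100939541-100939790, minus strand), since Stat3 rose in male tubules, and Bcl3 (chr7:19822771-19823005, minus strand), which rose in male endothelial isolates. Each is written 5′ to 3′ and ends at the base before the start, or before the first annotated untranslated base for Bcl3.
Socs3: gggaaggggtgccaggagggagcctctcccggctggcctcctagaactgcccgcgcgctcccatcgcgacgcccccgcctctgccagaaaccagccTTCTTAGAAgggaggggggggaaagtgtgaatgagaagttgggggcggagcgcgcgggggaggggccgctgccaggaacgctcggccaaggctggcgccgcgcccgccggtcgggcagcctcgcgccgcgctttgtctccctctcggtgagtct
Stat3: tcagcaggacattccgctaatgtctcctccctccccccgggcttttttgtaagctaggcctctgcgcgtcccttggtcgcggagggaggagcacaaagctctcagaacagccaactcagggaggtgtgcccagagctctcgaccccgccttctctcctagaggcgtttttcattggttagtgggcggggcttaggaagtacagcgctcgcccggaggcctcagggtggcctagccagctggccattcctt
Bcl3: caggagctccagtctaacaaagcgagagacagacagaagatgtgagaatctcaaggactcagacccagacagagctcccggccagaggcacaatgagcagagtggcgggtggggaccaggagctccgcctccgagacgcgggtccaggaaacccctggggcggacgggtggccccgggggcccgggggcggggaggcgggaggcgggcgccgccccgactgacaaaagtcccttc

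After injury, male tubules showed a rise of the ligand genes Il6 and Lif, of the receptor gene Osmr, and of Stat3 and Socs3. In edgeR's quasi-likelihood test with Benjamini-Hochberg adjustment over all genes, 5 of the 10 genes were higher (called at an adjusted p under 0.05) and none was lower, against 19% of 18369 genes called and 10.6% called higher and 8.43% lower. The 10 proximal tubule markers summed to 17600 to 21660 CPM in sham and 8341 to 12290 CPM in injured male tubules, and their part in these changes was not tested. The distal markers summed to 3278, 1945 and 1559 CPM in sham and 5113, 5163 and 2015 CPM in injured male tubules. Injured replicate 3, the lowest injured male library for Il6, Lif, Osmr and Stat3, thus lay within the sham range of this sum. In female tubules 0 of 10 passed, where only 0.0109% of genes did. Of the 10, 1 had an unadjusted p under 0.05, and DESeq2 called 1, where it called 3.3% of all genes. That share depended on the fit: it was 6.9% with only the female tubule groups, and 2.59% without injured male replicate 3. Male endothelial isolates had 1 gene higher, Bcl3, against a background of 0.864% called and 0.537% called higher. Female endothelial isolates had 0 of 10, at 0% of 19910 genes; none of the 10 had an unadjusted p under 0.05, and DESeq2 called none. With only the sham and injured male tubules in the fit, Osmr and Stat3 passed and Il6, Lif and Socs3 did not (adjusted p = 0.112, 0.0931 and 0.149). Over all genes 0.913% were called in that fit, against 19% in the fit of all tubule groups. The median log2 change of the 10 was 1.74 in male tubules and 2.10 in male endothelial isolates, beside -0.03 and -0.02 over all genes tested. In females the medians were 0.59 in tubules and 0.18 in endothelial isolates, beside 0.00 and 0.01. The female tubule median includes Il6, whose fitted change is not reported because sham females had no read.

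**Figure D1:**
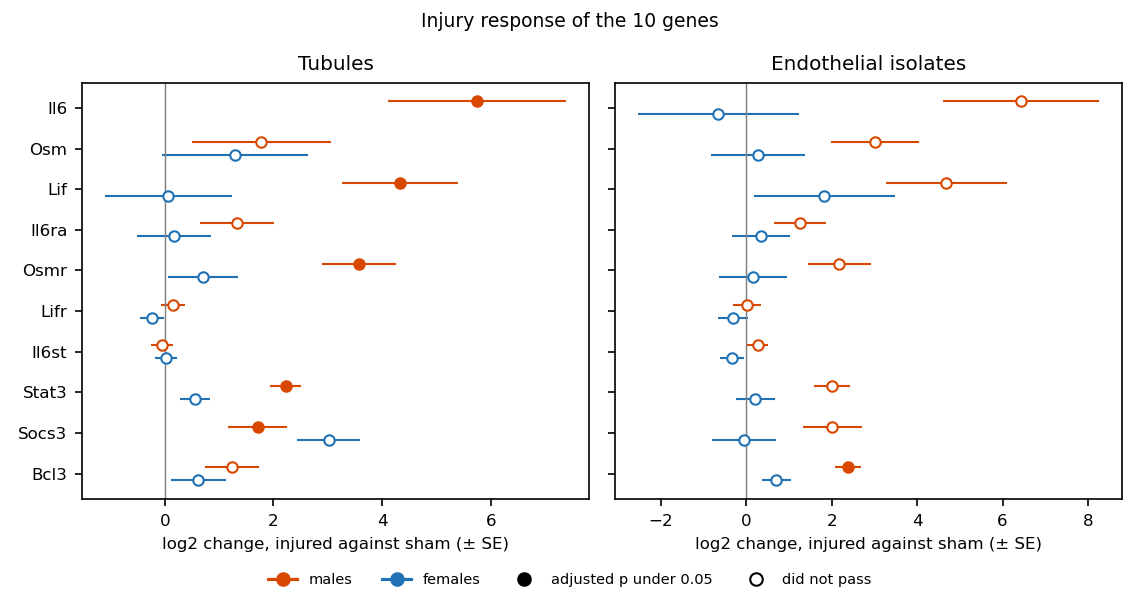
Log2 change from sham to injured (± SE, edgeR) of the 10 genes, in tubules at left and endothelial isolates at right, males in orange and females in blue; filled points passed an adjusted p of 0.05. Male points lie to the right of female points for most genes, except in tubules for Socs3, where the female change (3.02) is the larger, and for Il6st, where both lie near 0; Il6 in female tubules is not drawn because sham females had no read.

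Il6 (ENSMUSG00000025746.11, chr5:30013114-30019981, plus strand), the founding cytokine of the family, was nearly silent outside injured males. In tubules of sham females no library held a read, sham males had 0.280, 0.262 and 0 CPM, and injured females had 0.265, 0.286 and 0 CPM. Injured males had 20.2, 9.23 and 0.211 CPM. Replicates 1 and 2 therefore stood far above every other tubule library, while replicate 3 lay within the sham range. The male change was 5.74 ± 1.64 on the log2 scale (adjusted p = 0.0396, edgeR), and it no longer passed when any sham male library, or injured replicate 1 or 2, was left out (adjusted p = 0.0938 to 0.139); without injured replicate 3 it was 6.32 ± 1.17 (adjusted p = 0.00205). For injured against sham females, the injured mean, from 26 reads, was 6.79-fold a floor of 3 counts over the sham group. The floor covers counting error in the sham group only, not that of the 26 reads or the spread between mice. This ratio rests on replicates 1 and 2, since injured replicate 3 was at 0 CPM like the sham females. In endothelial isolates of injured males Il6 was 0.419, 35.9 and 0.886 CPM, against 0, 0 and 0.412 CPM in sham males. That high library, replicate 2, carried the change of 6.43 ± 1.82 (adjusted p = 0.126), which was 2.20 ± 1.40 without it. With all libraries, the authors' deposited DESeq2 table gives Il6 a log2 fold change of 5.82 here, with an adjusted p of 0.00694.

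Lif (ENSMUSG00000034394.14, chr11:4257557-4272514, plus strand) encodes leukemia inhibitory factor, a ligand of Lifr with gp130. Tubules of injured males had 22.2, 27.2 and 3.88 CPM and those of sham males 2.01, 0.476 and 0.152 CPM. All injured males lay above all sham males, with replicate 3 again the lowest. The change was 4.33 ± 1.07 (adjusted p = 0.0203), and it missed the threshold when sham replicate 2 or 3, or injured replicate 1 or 2, was left out (adjusted p = 0.0592 to 0.0806). Female tubules stayed low, at 0, 0.142 and 0.495 CPM in sham and 0.346, 0.132 and 0.193 CPM after injury. Injured male endothelial isolates had 4.19, 13.3 and 3.54 CPM against 0, 0 and 0.802 CPM in sham males, a change of 4.68 ± 1.42 that did not pass (adjusted p = 0.151).

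Osm (ENSMUSG00000058755.3, chr11:4236420-4241026, plus strand), which encodes oncostatin M, was scarce in every group. Injured male tubules had 0.540, 0.904 and 0.441 CPM and sham male tubules 0.331, 0.214 and 0 CPM, a change of 1.77 ± 1.28 (adjusted p = 0.347). The highest levels were in endothelial isolates of injured males, at 1.19, 5.15 and 1.90 CPM. Sham male isolates had 0.0959, 0.156 and 0.756 CPM, and the change of 3.01 ± 1.02 did not pass (adjusted p = 0.193; DESeq2 adjusted p = 0.0229). The authors' deposited table for this comparison gives Osm a log2 fold change of 2.24 with an adjusted p of 0.0364.

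**Figure D2:**
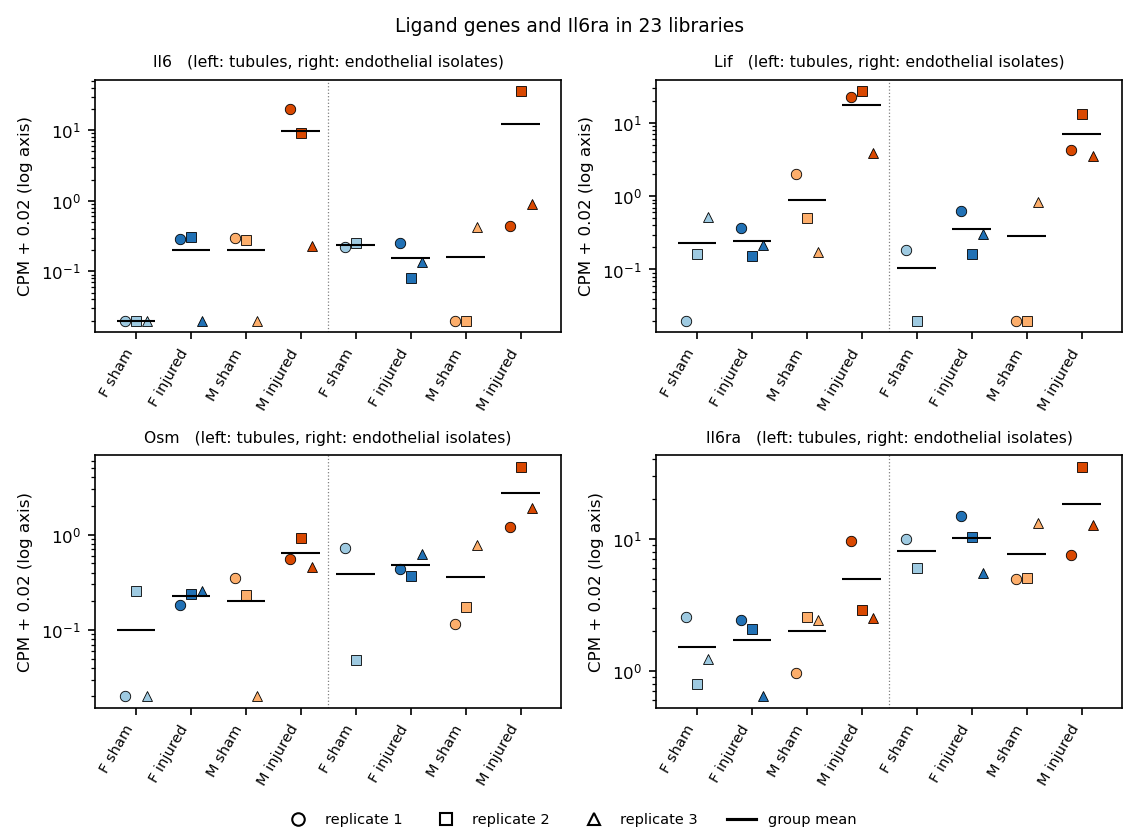
Level of Il6, Lif, Osm and Il6ra in each of 23 libraries, as CPM plus 0.02 on a log axis; marker shape is the replicate and the bar the group mean. Il6 in injured males is high in tubule replicates 1 and 2 (20.2 and 9.23 CPM) and endothelial replicate 2 (35.9 CPM) and below 1 CPM in their other libraries.

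Leukocyte markers differed between the same libraries. The 9 neutrophil markers summed to 35.7, 20.4 and 4.55 CPM in injured male tubules, to 1.12 to 3.58 CPM in injured female tubules and to 1.22 to 2.56 CPM in sham tubules. In injured male endothelial isolates they summed to 12.0, 124.9 and 12.1 CPM, so replicate 2, with the most Il6, Osm and Lif, also had the most neutrophil RNA. Of these 9 markers, 1, 1 and 2 were at 0 in injured male tubules and 2, 1 and 2 in injured male endothelial isolates. The 9 macrophage markers summed to 29.4 to 45.4 CPM in injured male tubules and 20.6 to 34.4 CPM in sham male tubules. Mast cell markers (5 genes) summed to at most 0.0576 CPM in injured male tubules. In endothelial isolates the macrophage markers summed to 96.6, 81.8 and 127.3 CPM in injured males, to 16.3, 15.5 and 96.5 CPM in sham males and to 45.3 to 55.5 CPM in injured females. The part of leukocyte RNA in the results for the 10 genes was not tested.

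**Figure D3:**
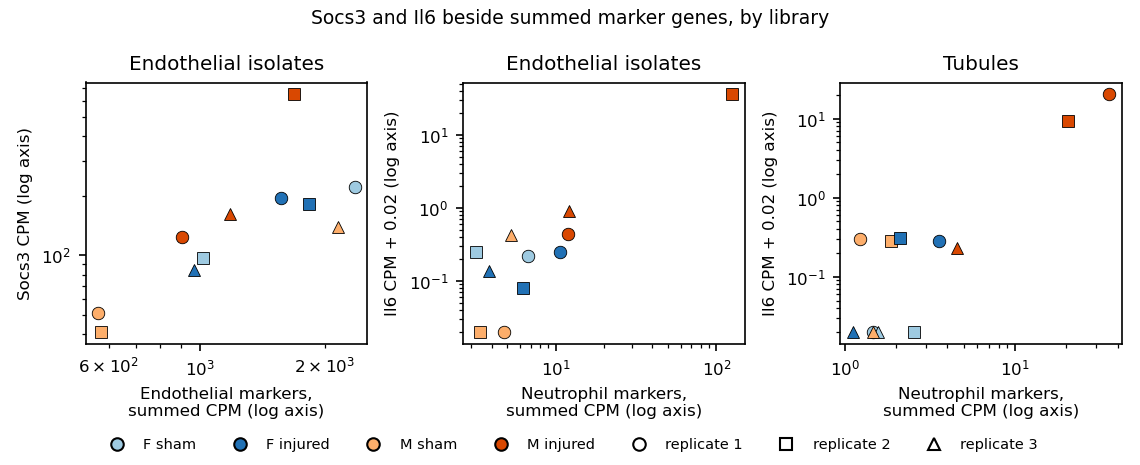
Socs3 against the summed endothelial markers in endothelial isolates (left), and Il6 against the summed neutrophil markers in endothelial isolates (middle) and tubules (right), 1 point a library, log axes, colour by group and shape by replicate. The injured male libraries with the most Il6 (35.9, 20.2 and 9.23 CPM) are those with the most neutrophil marker RNA of their isolation (124.9, 35.7 and 20.4 CPM).

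Among receptors, Osmr (ENSMUSG00000022146.12, chr15:6813577-6874969, minus strand), the oncostatin M receptor chain, had the largest change with injury in male tubules and in male endothelial isolates. Tubules of injured males had 21.4, 18.0 and 11.1 CPM against 0.661, 2.00 and 1.57 CPM in sham males. All injured males were well above all sham males, and replicate 3 was the lowest of the 3. The change of 3.57 ± 0.69 passed (adjusted p = 0.00767) and was kept with each library of the comparison left out in turn. Female tubules had 0.309, 0.924 and 2.56 CPM in sham and 1.71, 3.17 and 1.29 CPM after injury, a change of 0.70 ± 0.64 (adjusted p = 0.823). In endothelial isolates Osmr was 15.04, 57.3 and 14.0 CPM in injured males and 2.37, 3.55 and 13.1 CPM in sham males, where the sham replicate 3 came close to the injured libraries. That change was 2.18 ± 0.74 and did not pass (adjusted p = 0.193). Without sham replicate 3, which also held the most endothelial and macrophage marker RNA of the sham males, it was 3.29 ± 0.75 (adjusted p = 0.0446). In that fit 4 of the 10 genes were called in male endothelial isolates, Osmr, Stat3, Bcl3 and Lif, beside 3.6% of all genes, and Lif then had no read in the sham libraries left.

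Il6ra (ENSMUSG00000027947.11, chr3:89864059-89913196, minus strand), the IL-6 binding chain, was higher in endothelial isolates than in tubules of sham mice. Sham endothelial isolates had 9.98 and 6.00 CPM in females and 4.94, 5.00 and 13.0 CPM in males, while sham tubules had 2.54, 0.782 and 1.21 CPM and 0.941, 2.55 and 2.43 CPM. In the fit of both isolations Il6ra was 2.06 ± 0.52 higher in endothelial isolates on the log2 scale (adjusted p = 0.0113), and Osmr 2.33 ± 0.56 higher (adjusted p = 0.00845). These were the 2 of 10 genes called, both higher, beside 12.3% of 21206 genes called with 10.4% higher and 1.86% lower. Both calls were lost without sham female endothelial replicate 1 (adjusted p = 0.0643 for Il6ra and 0.0656 for Osmr). Injury did not change Il6ra past the threshold in any group: injured male tubules had 9.57, 2.85 and 2.48 CPM (1.33 ± 0.69, adjusted p = 0.189) and injured male endothelial isolates 7.46, 35.02 and 12.7 CPM (1.26 ± 0.60, adjusted p = 0.351). Short stretches of the exons of Il6ra, Stat3 and Bcl3 overlap exons of Gm42809, Stat5a and Gm16175 on the opposite strand, and without a stated strand setting reads from those stretches cannot be told apart.

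Lifr (ENSMUSG00000054263.12, chr15:7090614-7197489, plus strand) and Il6st (ENSMUSG00000021756.12, chr13:112464070-112510086, plus strand) were abundant and moved little. Lifr ran from 44.2 to 81.7 CPM in injured male tubules and from 52.3 to 74.7 CPM in sham males, a change of 0.16 ± 0.22 (adjusted p = 0.656). Il6st, the shared gp130 chain, had 242, 182 and 198 CPM in injured male tubules and 180, 169 and 293 CPM in sham males. Its changes with injury were -0.05 ± 0.20 in male tubules, 0.03 ± 0.20 in female tubules, 0.27 ± 0.26 in male endothelial isolates and -0.33 ± 0.28 in female endothelial isolates, none past the threshold. Sham male replicate 3 held the highest tubule level of Il6st.

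Stat3 (ENSMUSG00000004040.16, chr11:100885098-100939540, minus strand) rose in male tubules after injury. Injured males had 374, 281 and 133 CPM and sham males 61.9, 54.7 and 52.4 CPM. Even replicate 3, the lowest injured library, was above every sham library. The change was 2.22 ± 0.29 (adjusted p = 0.00148), it was kept with each library of the comparison left out in turn, and it was 2.54 ± 0.14 without injured replicate 3. Female tubules had 43.2, 48.2 and 44.1 CPM in sham and 76.5, 61.5 and 61.8 CPM after injury. These female groups did not overlap either, with a change of 0.56 ± 0.28 (adjusted p = 0.517), and the gene passed when only the 2 groups compared entered the fit (adjusted p = 0.0189). In male endothelial isolates Stat3 was 180, 525 and 173 CPM after injury and 57.0, 64.8 and 95.9 CPM in sham, a change of 2.01 ± 0.42 just over the threshold (adjusted p = 0.0521). Without injured replicate 2 the change was smaller, 1.28 ± 0.25, and passed (adjusted p = 0.0342), and without sham replicate 3 it was 2.27 ± 0.49 (adjusted p = 0.0362). For this comparison the authors' deposited DESeq2 table gives Stat3 a log2 fold change of 1.69 with an adjusted p of 0.00453. Female endothelial isolates had 113, 79.0 and 79.9 CPM after injury and 85.7 and 70.9 CPM in sham (0.21 ± 0.45, adjusted p = 1).

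Socs3 (ENSMUSG00000053113.3, chr11:117966079-117970047, minus strand), the feedback inhibitor whose upstream motif is shown above, was high after injury in tubules of both sexes. Sham females had 17.0, 26.2 and 31.0 CPM and injured females 208, 271 and 123 CPM. The female groups were far apart, by 3.02 ± 0.58 on the log2 scale. The adjusted p was 0.0721, so the gene was not called, in a comparison where few genes were; DESeq2 called it (adjusted p = 7.32e-06), as did the authors' deposited table (log2 fold change 3.51, adjusted p = 2.16e-10). Markers of other nephron segments were also higher in the injured female tubules: the distal markers summed to 1839, 2203 and 2095 CPM in sham and 6097, 7307 and 5633 CPM after injury, and the collecting duct markers to 199.6, 172.7 and 78.9 CPM and 856, 740 and 629 CPM. With the distal marker level as a covariate the female change was 2.59 ± 0.86 (adjusted p = 0.114, with 0% of genes called); the part of the collecting duct markers was not tested. In males, injured tubules had 323, 256 and 217 CPM and sham tubules 137, 87.6 and 18.8 CPM. The low sham library, replicate 3, was sequenced as 2 technical libraries that gave Socs3 19.1 and 16.1 CPM before normalization. The male change was 1.71 ± 0.55 and passed narrowly (adjusted p = 0.0497), and without that sham library it was 1.24 ± 0.36 (adjusted p = 0.0600). It also missed the threshold without sham replicate 2 or injured replicate 1 or 2 (adjusted p = 0.114 to 0.145).

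In endothelial isolates Socs3 was already high in several sham libraries. Sham females had 221 and 97.0 CPM and sham males 51.3, 41.1 and 139 CPM. Injured females had 195, 181 and 84.2 CPM and injured males 124, 648 and 161 CPM, so sham and injured libraries overlapped in both sexes. The changes were -0.05 ± 0.74 in females (adjusted p = 1) and 2.01 ± 0.69 in males (adjusted p = 0.196), the latter 0.88 ± 0.55 without injured replicate 2. Within groups the level largely went with the endothelial marker sum. That sum was 2364 and 1014 CPM in sham females and 566, 573 and 2153 CPM in sham males. It was 1569, 1831 and 963 CPM in injured females and 903, 1685 and 1183 CPM in injured males. Replicates 1 and 2 of sham males and of injured females were in the other order. The distal marker sum also went with Socs3 in part. It was 14600 and 12050 CPM in sham females and 9338, 8388 and 16270 CPM in sham males. After injury it was 11830, 12060 and 11100 CPM in females and 9830, 15750 and 9904 CPM in males, and its part was not tested. With the endothelial marker level as a covariate, an alternative chosen after seeing the data, the male change was 1.46 ± 0.48 (adjusted p = 0.179).

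Bcl3 (ENSMUSG00000053175.17, chr7:19808462-19822770, minus strand) was highest in injured males in both isolations. Tubules of sham females had 0.866, 3.53 and 3.77 CPM, sham males 13.9, 17.4 and 4.70 CPM, injured females 3.62, 4.01 and 4.97 CPM and injured males 29.2, 27.1 and 29.0 CPM. The injured males were tightly grouped, replicate 3 included, and above all other tubule libraries. The male injury change was 1.25 ± 0.50 (adjusted p = 0.0979) and the female one 0.62 ± 0.51 (adjusted p = 0.781), neither past the threshold. In endothelial isolates injured males had 22.2, 44.6 and 29.9 CPM against 7.48, 4.85 and 6.25 CPM in sham males. This change of 2.38 ± 0.31 was called (adjusted p = 0.0126). It was 2.07 ± 0.26 without injured replicate 2 (adjusted p = 0.00739) and 2.36 ± 0.33 with the endothelial marker covariate (adjusted p = 0.0140), but the call was lost without sham replicate 1 or 2 (adjusted p = 0.0653 and 0.0840) and with only these 2 groups in the fit (adjusted p = 0.128). With the proximal tubule marker level as a covariate the change was 2.30 ± 0.59 and the adjusted p 0.668, in a fit that called 0% of all genes. That marker sum was 6469 to 7203 CPM in injured males and 9553 to 18190 CPM in sham males, ranges that did not overlap. Female endothelial isolates had 8.61, 5.65 and 7.64 CPM after injury and 4.09 and 4.88 CPM in sham (0.70 ± 0.34, adjusted p = 1).

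**Figure D4:**
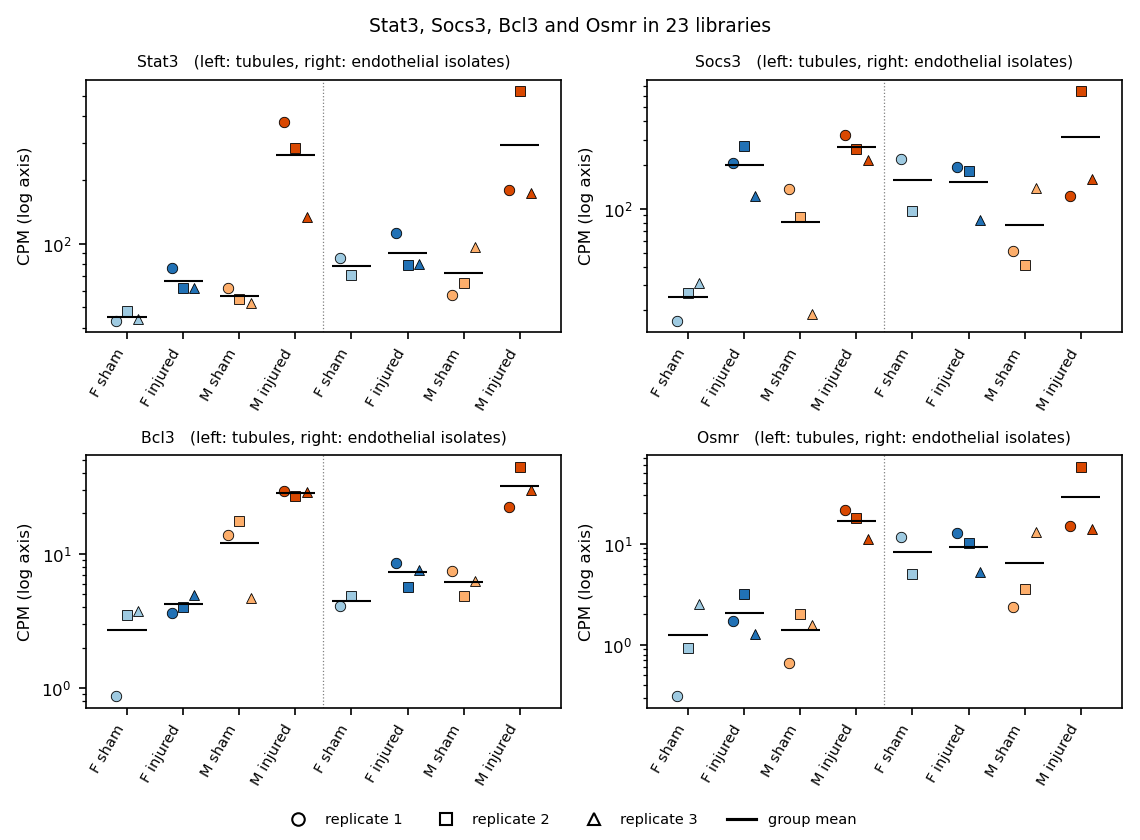
Level of Stat3, Socs3, Bcl3 and Osmr in each of 23 libraries (CPM, log axis), with tubules left and endothelial isolates right of the dotted line; marker shape is the replicate and the bar the group mean. Socs3 in injured female tubules (123 to 271 CPM) lies near injured males (217 to 323 CPM), while Stat3, Bcl3 and Osmr in injured females stay below every injured male tubule library.

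Injured tubules differed by sex in 5 of the 10 genes, all higher in males: Il6, Lif, Osmr, Stat3 and Bcl3, beside 23.3% of genes called and 12.8% called higher and 10.5% lower. Bcl3 was 2.76 ± 0.53 higher in injured males (adjusted p = 0.00510), Stat3 1.98 ± 0.29 (adjusted p = 0.00146), Lif 6.28 ± 1.19 (adjusted p = 0.00506), Osmr 3.03 ± 0.67 (adjusted p = 0.00959) and Il6 5.72 ± 1.63 (adjusted p = 0.0337). With the distal marker level as a covariate, Osmr and Bcl3 missed the threshold (adjusted p = 0.0685 and 0.0989). That fit called 35.6% of all genes, 16.8% of them as higher in males, counted over all genes tested. The distal marker sum was 5113, 5163 and 2015 CPM in injured males and 6097, 7307 and 5633 CPM in injured females. Il6 lost its call without any injured library other than male replicate 3 (adjusted p = 0.0805 to 0.122). Socs3 differed by 0.41 ± 0.53 (adjusted p = 0.621) between injured males and females. In sham tubules 1 of 10 was called, Bcl3, 2.14 ± 0.52 higher in males (adjusted p = 0.0335), beside 5.8% called and 3.24% called higher. This call was lost without any single sham library other than male replicate 3 (adjusted p = 0.0648 to 0.133), and with library 3B alone of the technical pair (adjusted p = 0.0654), in which Bcl3 had 64 reads against 122 in the other. Socs3 in sham tubules differed by 1.72 ± 0.55 (adjusted p = 0.103), and by 2.19 without male replicate 3 (adjusted p = 0.00488, beside 5.84% of genes called). The authors' deposited DESeq2 table gives Socs3 a log2 fold change of 2.01 between sham tubules, with an adjusted p of 1.09e-04. The collecting duct markers summed to 1050, 501 and 157 CPM in sham males and to 78.9 to 199.6 CPM in sham females; their part was not tested.

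The test of the sex difference in the tubule injury response called 0 of the 10 genes, beside 0.855% of genes called (0.381% higher and 0.474% lower); 3 of the 10 had an unadjusted p under 0.05, and DESeq2 called 2, Stat3 and Osmr. Stat3 responded 1.66 ± 0.40 more in males (adjusted p = 0.0706), Osmr 2.88 ± 0.91 more (adjusted p = 0.136) and Lif 4.27 ± 1.55 more (adjusted p = 0.173). Socs3 went the other way, 1.31 ± 0.76 less in males, given by a log2 difference of -1.31 (adjusted p = 0.351). Without injured male replicate 3, Stat3 (1.98 ± 0.19, adjusted p = 4.67e-05), Lif (adjusted p = 0.0252) and Osmr (adjusted p = 0.0263) passed, but so did 30.5% of all genes tested in that fit. No value is given for Il6 here, since the sham females had no read.

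Between the sexes, endothelial isolates differed in Bcl3. After injury it was 2.14 ± 0.31 higher in males (adjusted p = 0.00779), the 1 of 10 called, beside 1.5% of genes called and 0.663% called higher and 0.834% lower, and the call was lost without injured female replicate 2 (adjusted p = 0.0576). Stat3 was 1.69 ± 0.42 higher (adjusted p = 0.0813) and 0.96 ± 0.25 without male replicate 2. In sham isolates 0 of 10 passed, beside 0.432% called; none had an unadjusted p under 0.05, and DESeq2 called none. The sex difference in the endothelial injury response called 0 of 10, at 0% of genes, where 3 of the 10 had an unadjusted p under 0.05 and DESeq2 called none; Bcl3 had 1.68 ± 0.45 (adjusted p = 0.738). The injury response did not differ past the threshold between isolations for any of the 10, at 0% of genes called, none with an unadjusted p under 0.05, and none called by DESeq2. These comparisons share their sham or injured libraries with those above.

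Many genes that STAT3 is known to activate rose in male tubules, in a list chosen with earlier results of these data known. Of 26 such genes, 17 were higher and 1, Vegfa, was lower after injury in male tubules, with a median change of 2.38 beside -0.03 over all genes tested and 19% of genes called. Lrg1, a secreted acute phase glycoprotein, had 68.0, 42.5 and 99.5 CPM in injured males and 3.89, 5.17 and 2.27 CPM in sham males (4.21 ± 0.44, adjusted p = 4.18e-04). The fibrinogen chain genes Fgg (4.80 ± 0.62, adjusted p = 0.00133) and Fga (4.00 ± 0.56, adjusted p = 0.00195) rose too. Lcn2, the injury marker lipocalin, had 507, 488 and 186 CPM against 5.08, 2.10 and 0.354 CPM (7.29 ± 1.04, adjusted p = 0.00203). The count was 10 to 21 with 1 library of the comparison left out, lowest without injured replicate 1 or 2, where 6.07% and 4.97% of all genes were called, and highest without replicate 3, where 42.5% were. Fgg and Lrg1 were highest in replicate 3, the injured male library with the lowest Il6, Lif and Stat3.

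In female tubules 0 of the 26 passed, where 0.0109% of all genes did, and the median was 1.22, beside 0.00 over all genes. DESeq2 called 5 higher, where it called 2.75% of all genes higher. Lcn2 had 2.58, 3.48 and 17.9 CPM after injury and 0.155, 0.332 and 0.330 CPM in sham (4.84 ± 1.06, adjusted p = 0.0931). Male endothelial isolates had 6 of the 26 higher, beside 0.537% of all genes called higher. These were led by Lcn2 (7.36 ± 0.85, adjusted p = 0.00975), Lrg1 (3.66 ± 0.48, adjusted p = 0.0126), Myc (3.22 ± 0.52, adjusted p = 0.0232) and Timp1 (5.80 ± 0.96, adjusted p = 0.0246). The count of 6 was 8 without injured replicate 2, where 1.12% of all genes were called higher. It was 0 without sham replicate 1 or 2, where 0.0202% and 0% were. Between injured tubules of the sexes 15 of 26 were higher in males, led by Lrg1 (4.31 ± 0.45, adjusted p = 2.21e-04), beside 12.8% of all genes called higher. With 1 library left out it was 8 to 17, where 5.38% to 20.4% of all genes were called higher. Lrg1 was also the 1 gene of the 26 whose tubule response differed by sex (3.02 ± 0.58 more in males, adjusted p = 0.0396), beside 0.381% of all genes called higher. With 1 library left out this count was 0, or 10 without injured male replicate 3, where 30.5% of all genes were called.

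The other genes of the pathway were counted by list in male tubules, where 19% of all genes were called, 10.6% higher and 8.43% lower. Of 13 other ligand and receptor genes, 9 were tested in tubules; Clcf1, which encodes another gp130 ligand, rose in injured males (28.3, 31.9 and 7.39 CPM against 1.45, 1.09 and 0.177 CPM, 4.63 ± 1.00, adjusted p = 0.0122), and Il11ra1, the interleukin-11 receptor chain, fell by 0.50 on the log2 scale (adjusted p = 0.0188). Of 10 genes for Janus kinases and other STATs, 9 were tested and Jak2 alone was called (1.06 ± 0.34, adjusted p = 0.0496). Among 4 genes of receptor shedding, the iRhom genes Rhbdf1 (1.24 ± 0.20, adjusted p = 0.00339) and Rhbdf2 (2.96 ± 0.57, adjusted p = 0.00767), whose proteins bring the sheddase ADAM17 to the cell surface, were higher, and Adam10 and Adam17 did not pass. Of 15 other SOCS, PIAS and phosphatase genes, Ptpn11, Socs6 and Ptpn1 were higher (0.79 ± 0.19, 0.97 ± 0.25 and 1.05 ± 0.29; adjusted p = 0.0198, 0.0231 and 0.0291), and Pias2 and Ptpn6 were lower. Of 10 NF-kB and other IkB genes, Nfkb1 (1.53 ± 0.23, adjusted p = 0.00274), Nfkb2 (1.39 ± 0.23, adjusted p = 0.00432) and Rela (2.05 ± 0.50, adjusted p = 0.0197) were higher in injured male tubules. Nfkb2, which encodes p52, a partner of the Bcl3 protein, was also higher in injured male endothelial isolates (1.45 ± 0.27, adjusted p = 0.0399).

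Over all 23 libraries, which share their groups and isolations, the protein-coding genes whose log2 CPM was most like that of Socs3 among 10438 ranked were Irf2bpl, Spry1, Arc, Rhob and Klf11 (Pearson r of 0.908 to 0.922). For Osmr they were Plekho1, Slc12a4, Pdlim7, Map4 and Ehd4 (0.924 to 0.943). For Bcl3 they were Pxk, Cyb561, Il34, Icam1 and Fbxo4 (0.901 to 0.922). The values describe these libraries, and no gene was on more than 1 of the 3 lists.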

How the data were processed

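Poly-A libraries were quantified with Salmon 0.13.1 against GRCm38 transcripts, per the submitters' processing notes; the deposited files give, per transcript, estimated counts (expected counts, not normalized), TPM and effective lengths made by the authors. The 8 tables the authors deposited give DESeq2 log2 fold changes, their errors and adjusted p-values; their DESeq2 version is not given in the sources used here. Many of those fold changes lie near 0, so they are quoted only where named.

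Gene counts are rounded sums of the transcript estimates; sham male tubule replicates 3 and 3B, 2 libraries of 1 sample, were added. Each isolation was tested with edgeR 4.0.16 in R 4.3.3 by quasi-likelihood, after TMM scaling and filterByExpr (count 10 and total 15 as minimums), with group as the design. A gene was called at a Benjamini-Hochberg adjusted p under 0.05 over all genes. The SE was taken as |log2 change| over the square root of F. The 12 comparisons cover injury in each sex, male against female and their interaction in each isolation, and endothelial isolates against tubules. Replicates are taken as separate mice, as the protocol has 3 of each sex a group. Simulated data checked the fits.

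The 10 genes and all lists were chosen with earlier results of these data known. Named were the 10 genes, up to 4 genes per pathway list with the smallest adjusted p among those called (further genes, such as Vegfa, were named after their values were seen), summed markers, and the 5 genes most like Socs3, Osmr and Bcl3 (mean of at least 5 CPM, prior count 2). Loci are from GENCODE M21 (GRCm38). Alternatives were RLE, no filter, DESeq2 1.42.0, length offsets, only the groups compared, a replicate block, marker covariates, 1 technical library alone, and leaving out each library; the endothelial marker covariate was chosen after seeing the data. The floor (3 counts) covers counting error of the group without a read only. Each ± is an SD over libraries or an SE of the fit, and both hold variation between libraries.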

Additional observations from a re-analysis of the deposited data

How the results depend on the processing

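Of 1934 log2 changes of single genes under an alternative, 1841 kept their call, 45 fell below the threshold, 48 passed it, and none reversed with a call; 122 changed sign with neither value called. The number of the 10 genes called moved as follows, the cause not tested. In the male tubule injury response (5) it was 2 with only the groups compared (0.913% of all genes called), and 2 to 5 with 1 library left out (4.97% to 42.5%). In the female tubule response (0) it was 1 without the low-count filter (0.476% of all genes called) and 1 with DESeq2 (3.3%). It was 2 with only the groups compared (6.9%) or with injured male replicate 3 left out of the fit (2.59%). In the male endothelial response (1) it was 6 without the filter (2.53% of all genes called), 5 with DESeq2 (5.93%) and 0 with only the groups compared (0.0113%). It was 2 with the endothelial (1.6%) and 0 with the proximal tubule marker covariate (0%), and 0 to 4 with 1 library left out (0% to 3.6%). Between sham tubules of the sexes (1) it was 2 without the filter (3.14% of all genes called) and 2 with DESeq2 (9.21%). It was 0 with only the groups compared (10.2%), 0 with replicate 3B alone (5.71%) and 0 to 2 with 1 library left out (2.84% to 5.84%). Between injured endothelial isolates of the sexes (1) it was 4 without the filter (2.41% of all genes called) and 2 with DESeq2 (6.34%). It was 4 with the endothelial (4.14%) and 0 with the proximal tubule marker covariate (0.0201%), and 0 to 1 with 1 library left out (0.389% to 1.98%). For the sex difference in the tubule response (0) it was 1 without the filter (1.2% of all genes called) and 2 with DESeq2 (8.84%). It was 3 with the distal marker covariate (28.4%, beside 0.855% in the reported fit), and 0 to 3 with 1 library left out (3 without injured male replicate 3, at 30.5%). Between isolations in sham (2) it was 0 to 3 with 1 library left out (6.02% to 12.6% of all genes called). The other comparisons kept their count within 1.5 times. As deviations from their group means, same-numbered libraries correlated at -0.43 to 0.572 between isolations (11 pairs) and -0.194 to 0.225 between sham and injured (11 pairs). These values were over 0.1 in 3 and 2 pairs. With 2 or 3 libraries a group they cannot decide whether a number is 1 mouse, and sham and injured libraries share no title number. Libraries were kept unpaired. In injured females each library did correlate best with its own number between isolations (0.0896, 0.0944 and 0.178). With the replicate block the count was the same in all 12 comparisons, 5 in the male tubule response and 0 in the female one, but between sham tubules it held Il6, without a read in sham females, in place of Bcl3 (adjusted p = 0.0594). At these depths a gene with no read in 3 libraries lies under about 0.0271 CPM, and small changes of the ligand genes were not detectable.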
